A study of Macaca mulatta with 102 samples.

Results

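Immediate early genes were followed in blood T cells of rhesus macaques (Macaca mulatta), before and after transplantation of hematopoietic cells. The 9 genes considered were FOS, FOSB, JUN, JUNB, EGR1, DUSP1, IER2, BTG2 and MYC. A gene was measured where the platform annotation pairs a probe set with that gene alone. This held for 6 of the 9 genes, among 14133 genes so named on the array, with 7 of the 52865 probe sets, namely FOS (MmugDNA.38565.1.S1_at), JUNB (MmugDNA.21723.1.S1_at), DUSP1 (MmuSTS.4085.1.S1_at and MmugDNA.24043.1.S1_at), IER2 (MmugDNA.26855.1.S1_at), BTG2 (MmugDNA.6501.1.S1_at) and MYC (MmuSTS.999.1.S1_at). FOSB, JUN and EGR1 were not analysed here. No coordinates or sequences were used, since no genome of the array design was at hand. DUSP1 is given by MmuSTS.4085.1.S1_at, the brighter of its probe sets, unless the second is named.

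The study hybridised RNA of CD3-expressing cells, isolated from blood on a cell sorter, to Affymetrix rhesus arrays. It asked how prophylaxis regimens against graft-versus-host disease, among them the OX40 ligand antibody KY1005, shape the T cells of transplant recipients. There were 102 arrays of 66 animals in 16 groups, with 46 arrays from 45 healthy, untransplanted animals (Healthy.Control) and 56 arrays from recipients. Auto.D14 (n = 3, day 14), Auto.D36 (n = 4, days 30 and 36) and Auto.D100 (n = 4, day 100) had received their own cells. All other recipients had received cells of a donor. NoRx.F (n = 4, days 6 to 12) had no prophylaxis. Siro.F (n = 4, days 12 to 24) had sirolimus, which inhibits mTOR. Tac.Mtx.D14 (n = 3, day 14) and Tac.Mtx.F (n = 3, days 26, 49 and 67) had the calcineurin inhibitor tacrolimus and the folate antagonist methotrexate. Bela.Siro.D14 (n = 3, day 14), Bela.Siro.D30 (n = 2, day 30) and Bela.Siro.F (n = 7, days 26 to 105) had sirolimus and belatacept, which blocks CD28 costimulation. KY1005.D14 (n = 2, days 14 and 16) and KY1005.F (n = 3, days 16 and 23) had KY1005 alone. KY1005.Siro.D14 (n = 5, day 14), KY1005.Siro.D28 (n = 5, day 28) and KY1005.Siro.F (n = 4, days 97 to 106) had KY1005 with sirolimus. What the letter F stands for is not stated in the labels, which also give no age or sex. Several animals gave arrays to more than 1 group, so the groups are not independent of each other, and doses are not in the labels.

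Immediate early genes are switched on within minutes of a stimulus, without new protein synthesis, mostly through ERK and other MAP kinases acting on serum response factor and its partners. In T cells the antigen receptor is the classic trigger, and handling or warming of cells can also induce them. FOS and JUNB encode subunits of the transcription factor AP-1. DUSP1 is a phosphatase that switches MAP kinases off again, so it is both a product and a brake of the pathway. IER2 encodes a short-lived nuclear protein. BTG2 restrains proliferation and helps keep resting T cells quiescent, and MYC drives ribosome production, metabolism and growth in activated T cells.

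Values are log2 RMA signals, on which a difference of 1 is a doubling. Array medians ran from 5.13 to 5.35. The filter on low values asked that 3 or more arrays reach 5.21, the median over the whole table. All 7 probe sets passed it, each with at least 99 of the 101 arrays fitted at or above that level. Of 12 listed T cell markers 5 had a single-gene probe set, and CD5, ZAP70 and LAT stood at 10.07 or above in every array, while CD6 ran from 5.93 to 8.89 and CD28 from 5.88 to 8.13. The actin control probes at the 3' end of the transcript outshone those at its 5' end, a sign of partly degraded RNA, by more than 2.5 log2 units in 6 arrays, 4 of healthy animals and 2 of the 3 of Auto.D14 (R.201 and R.202). The mean level of 10 monocyte and myeloid markers had a median of 5.82 (range 4.71 to 7.45) in healthy animals and higher medians in 14 of the 15 other groups, up to 8.56 in KY1005.Siro.F. In such bulk RNA, fewer cells that express a gene and less RNA per cell cannot be told apart. The number of arrays limits the precision. Differences are estimates ± SE from a limma fit with the labelled batch as a factor, with p-values adjusted by the Benjamini-Hochberg method over 31710 probe sets, and a change was called at an adjusted p below 0.05. The 15 comparisons with healthy animals share the healthy arrays.

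FOS varied most of the 6 genes between healthy animals. Its level ran from 6.73 to 13.99 with a median of 8.69 in 45 animals, a range of 7.27 log2 units or 154-fold. Its SD among them, 1.77, was larger than that of 99.9% of the probe sets tested, and for the other members that share ran from 75.7% for IER2 to 99.5% for DUSP1. DUSP1 spanned 9.25 to 13.70 (21.9-fold), BTG2 5.81 to 9.06 (9.47-fold), JUNB 7.60 to 10.34 (6.67-fold) and MYC 9.07 to 11.25 (4.54-fold). IER2 was the steadiest of the 6 genes, between 10.23 and 11.74 (2.85-fold). Repeat arrays of the healthy animal R.201 differed by 0.06 for FOS and by at most 0.21, for BTG2, so the spread between animals was far larger than between these arrays. The spread was present within batches, with an SD of FOS of 1.60 to 2.05 in each of the 6.

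In these 45 animals the genes of the AP-1 and MAP kinase arm varied together, while MYC showed no relation to FOS that passed the test. FOS and DUSP1 had Pearson's r = 0.957 and Spearman's rho = 0.92 (both permutation p = 1e-05, the smallest that 100000 resamples can give, adjusted p = 5e-05 over 15 pairs of genes). Within the 4 batches that held at least 6 healthy animals, r of FOS and DUSP1 lay between 0.922 and 0.998, and without the 2 animals farthest from the median FOS level it was 0.945. The healthy animal R.34 had the highest level of FOS (13.99), DUSP1 (13.70) and JUNB (10.34), and the second highest of IER2 (11.65). JUNB followed FOS with r = 0.831 and rho = 0.834 (permutation adjusted p = 5e-05 for both), with r between 0.833 and 0.933 within batches and 0.808 without 2 animals. JUNB and DUSP1 had r = 0.778 and rho = 0.771 (permutation adjusted p = 5e-05 for both), from 0.723 to 0.936 within batches, and 0.775 without the 2 animals farthest from the median JUNB level.

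IER2 was tied more loosely to FOS, with r = 0.53 and rho = 0.552 (permutation adjusted p = 0.00065 and 0.0003), and the relation was not even between batches, with r = 0.142 in the 10 animals of batch 2 and 0.702 to 0.839 in the other 3. It was 0.596 without the 2 animals of most extreme FOS level. FOS and MYC showed no relation that passed the test (r = -0.0611, rho = -0.141, permutation adjusted p = 0.738 and 0.407), and r ran from -0.93 in the 6 animals of batch 4 to 0.306 in batch 2. MYC was higher where BTG2 was higher (r = 0.5, rho = 0.47, permutation adjusted p = 0.000881 and 0.00283). That relation was 0.795 in batch 2 and 0.773 in the 7 animals of batch 6, but 0.262 in batch 3 and -0.0763 in batch 4, and it was 0.408 without the 2 animals of most extreme BTG2 level. MYC was lower where IER2 was higher (r = -0.4, rho = -0.375, permutation adjusted p = 0.0107 and 0.0171), with r from -0.352 to -0.776 in all 4 batches and -0.3 without 2 animals. Of the 15 pairs 10 passed the threshold by both coefficients, and the share among pairs of other probe sets was not computed. The levels of the 6 genes were also set against the myeloid marker level, the actin ratio and the mean of 7 heat shock genes in healthy animals, relations that were chosen after the data had been seen. None of these 18 relations passed, the lowest permutation adjusted p being 0.225 for r and 0.366 for rho. The coefficients with that p of 0.225 were those of BTG2 and MYC with the actin ratio (-0.327 and -0.311) and of BTG2 with the heat shock genes (-0.336).

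**Figure D1:**
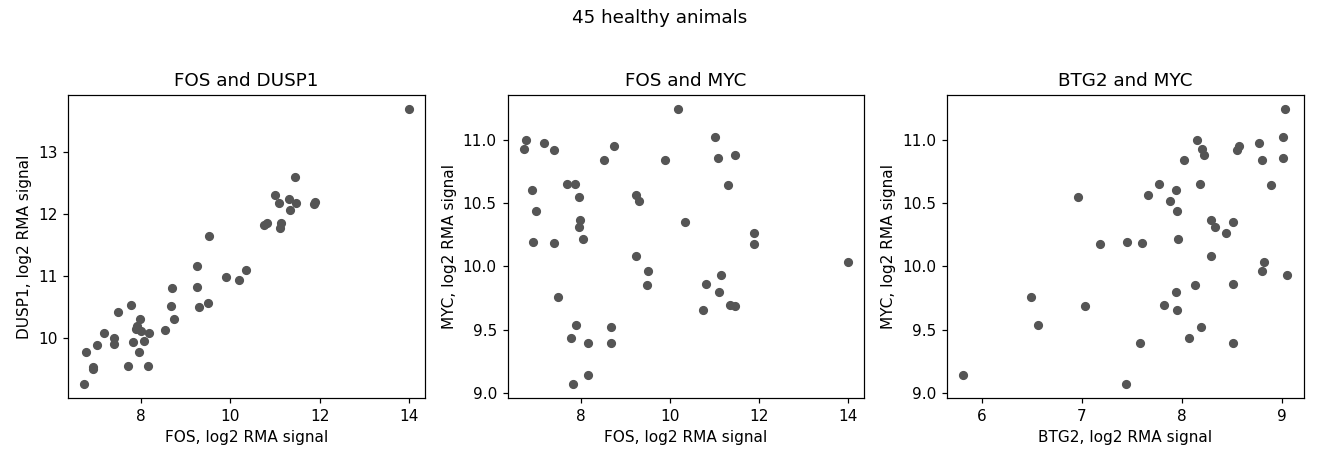
Level of DUSP1 against FOS (left), MYC against FOS (middle) and MYC against BTG2 (right) in 45 healthy animals, as log2 RMA signals, 1 point per animal. FOS and DUSP1 lie along a line (r = 0.957), MYC shows no trend with FOS (r = -0.0611), and MYC rises with BTG2 (r = 0.5) with a wide scatter.

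Across the 16 groups, FOS was highest in Tac.Mtx.F (mean 12.77 ± 0.78, SD, n = 3) and lowest in Auto.D100 (6.42 ± 2.17, n = 4), with healthy animals at 9.16 ± 1.77 (n = 45). DUSP1 ran from 12.79 ± 0.55 (n = 3) in Tac.Mtx.F to 9.35 ± 0.93 (n = 4) in NoRx.F, against 10.82 ± 1.05 in healthy animals. JUNB had the same groups at its ends, 9.77 ± 0.23 in Tac.Mtx.F and 7.30 ± 0.44 in NoRx.F, as did IER2 with 11.72 ± 0.26 and 10.52 ± 0.51. BTG2 was highest in KY1005.Siro.F (8.38 ± 1.23, n = 4) and lowest in Auto.D14 (6.52 ± 0.54, n = 3). MYC was highest in Bela.Siro.D30 (10.84 ± 0.66, n = 2) and lowest in NoRx.F (8.82 ± 0.41, n = 4). When the 16 means were put in order, neighbouring groups were almost always closer than the larger of their SDs. The exceptions were FOS between Tac.Mtx.F and the next group, Bela.Siro.F (a gap of 1.63), and JUNB between Auto.D100 and NoRx.F (a gap of 0.81).

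**Figure D2:**
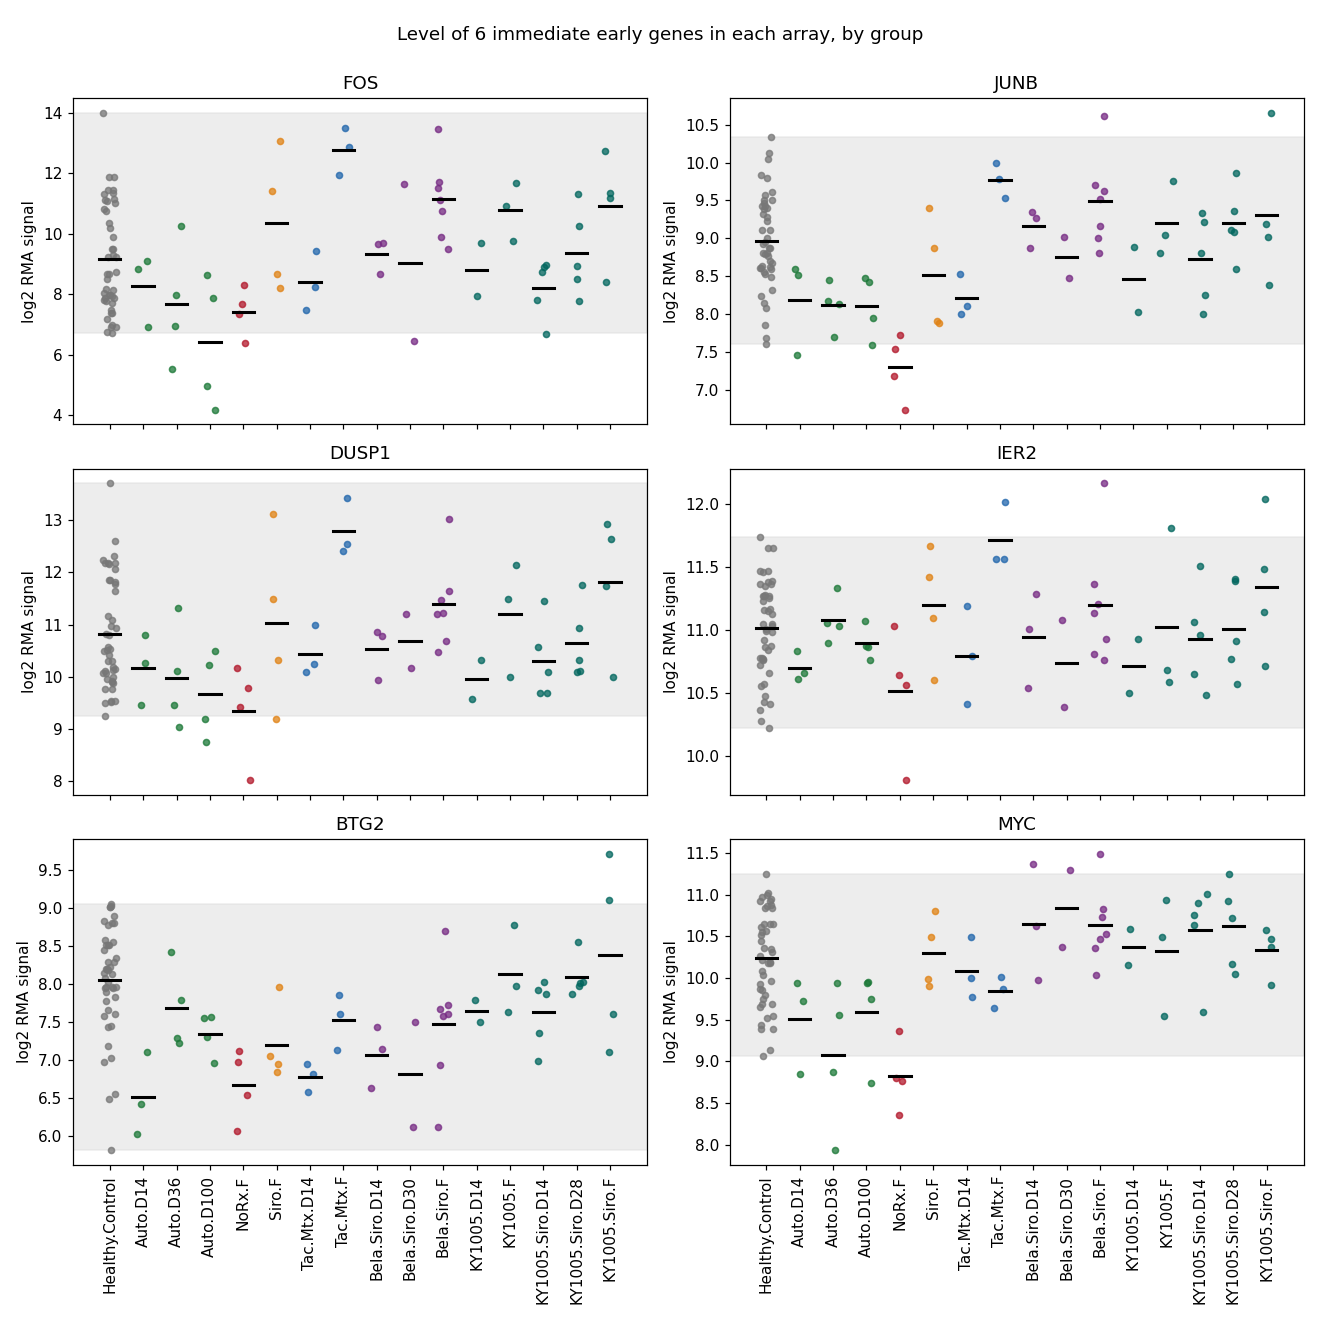
Level of each gene in each array (points) by group, with the group mean as a bar and the range of the 45 healthy animals shaded, in log2 RMA signal. In NoRx.F 3 of the 4 JUNB and 3 of the 4 MYC values lie below the healthy range, and the 3 FOS values of Tac.Mtx.F (11.94 to 13.49) lie in its upper part.

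T cells of recipients without prophylaxis had low JUNB, MYC and BTG2. JUNB was 7.54, 7.73, 6.74 and 7.18 in the 4 animals (R.53, R.50, R.51 and R.52), and 3 of these values lay below the lowest of 45 healthy animals. The fitted difference was -1.59 ± 0.35, a 3.00-fold lower level (adjusted p = 0.000178). MYC was 9.36, 8.77, 8.80 and 8.35 in the same order, again with 3 of 4 below the healthy range, and differed by -1.41 ± 0.32 or 2.66-fold (adjusted p = 0.000297). The 4 values of BTG2, 7.12, 6.55, 6.07 and 6.98, all fell under the healthy median of 8.15 but inside the healthy range, and the difference was -1.25 ± 0.39 (adjusted p = 0.0102). Thus 3 of 6 genes were called lower, where 27.5% of all probe sets tested were called in either direction and 14% lower.

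The other 3 genes were not called in NoRx.F. FOS was 8.30, 7.69, 6.38 and 7.35, each under the healthy median, with a difference of -1.45 ± 0.98 (adjusted p = 0.291). DUSP1 differed by -1.29 ± 0.59 (adjusted p = 0.0927) and IER2 by -0.39 ± 0.24 (adjusted p = 0.228). DUSP1's second probe set differed by only -0.17 ± 0.48 (adjusted p = 0.84). Without a batch term DUSP1 (-1.47, adjusted p = 0.0174) and IER2 (-0.51, adjusted p = 0.046) were called too, while over all alternatives their adjusted p ran from 0.00729 to 0.326 and from 0.046 to 0.655. The calls of JUNB and MYC held under all 13 alternatives run, and that of BTG2 was lost only without animal R.51 (-1.07, adjusted p = 0.0568).

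For 1 animal of this group, R.53, the same batch also held a healthy array. After transplant its MYC had changed by -1.56, BTG2 by -1.44 and JUNB by -1.07, while FOS had changed by 0.90, DUSP1 by 0.26 and IER2 by 0.05. These are single arrays with no error of their own. In this group the myeloid marker level had a median of 7.54 (range 5.85 to 8.44), with 3 of 10 markers higher, S100A8 at 4.48 ± 0.97, S100A9 at 4.73 ± 1.00 and FCN1 at 2.16 ± 0.80. The NK cell markers had a median of 8.49 (range 7.75 to 9.99) against 10.04 (8.94 to 10.94) in healthy animals, with 2 of 5 lower, KLRF1 at -2.79 ± 0.64 and NCR3 at -0.38 ± 0.14. With the myeloid level as a covariate the same 3 genes and DUSP1 were called, and the part of the NK cell markers was not tested.

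Other immediate early genes were called in both directions in the same group. Of 36 measured genes of a list of 47, 9 were lower and 5 higher, with a median difference of -0.18 beside 0.01 over all probe sets tested, of which 14% were lower and 13.5% higher. Among those with the smallest adjusted p, ZFP36L2 and ZFP36L1, which bind AU-rich elements and destabilise mRNAs, differed by -1.24 ± 0.17 and -1.34 ± 0.22. KLF2, a transcription factor of quiescence and of egress from lymph nodes, differed by -0.79 ± 0.15, and BATF, an AP-1 partner of effector T cells, by 1.47 ± 0.21. Upstream of the genes, 6 of 14 measured genes of the MAP kinase and serum response pathway were lower and none higher, beside the same 14% and 13.5% of all probe sets. They include MRTFB, a cofactor of serum response factor (-1.50 ± 0.19), RASGRP1, which loads Ras after antigen receptor signalling (-0.84 ± 0.11), the ERK kinase MAP2K1 (-0.48 ± 0.13) and SOS1, another Ras activator (-0.55 ± 0.18).

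Genes listed as MYC targets were called in both directions in NoRx.F. Of 18 measured targets of a list of 22, 6 were higher and 2 lower, with a median of 0.21, beside 13.5% of all probe sets higher and 14% lower, while MYC itself differed by -1.41. LDHA, which makes lactate, rose by 1.33 ± 0.12, the cell cycle kinase CDK4 by 0.75 ± 0.15 and the ribosome biogenesis factor BOP1 by 0.47 ± 0.12, whereas the nucleolar methyltransferase FBL fell by 0.42 on the log2 scale (SE 0.10). Many of these genes are also controlled by the cell cycle and by other growth pathways. Of 8 measured partners and antagonists of MYC, 3 were higher and 2 lower, against the same background. MXI1 and MGA differed by -1.39 ± 0.18 and -1.11 ± 0.15, MXD3 by 0.44 ± 0.10 and MLX by 0.28 ± 0.09.

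**Figure D3:**
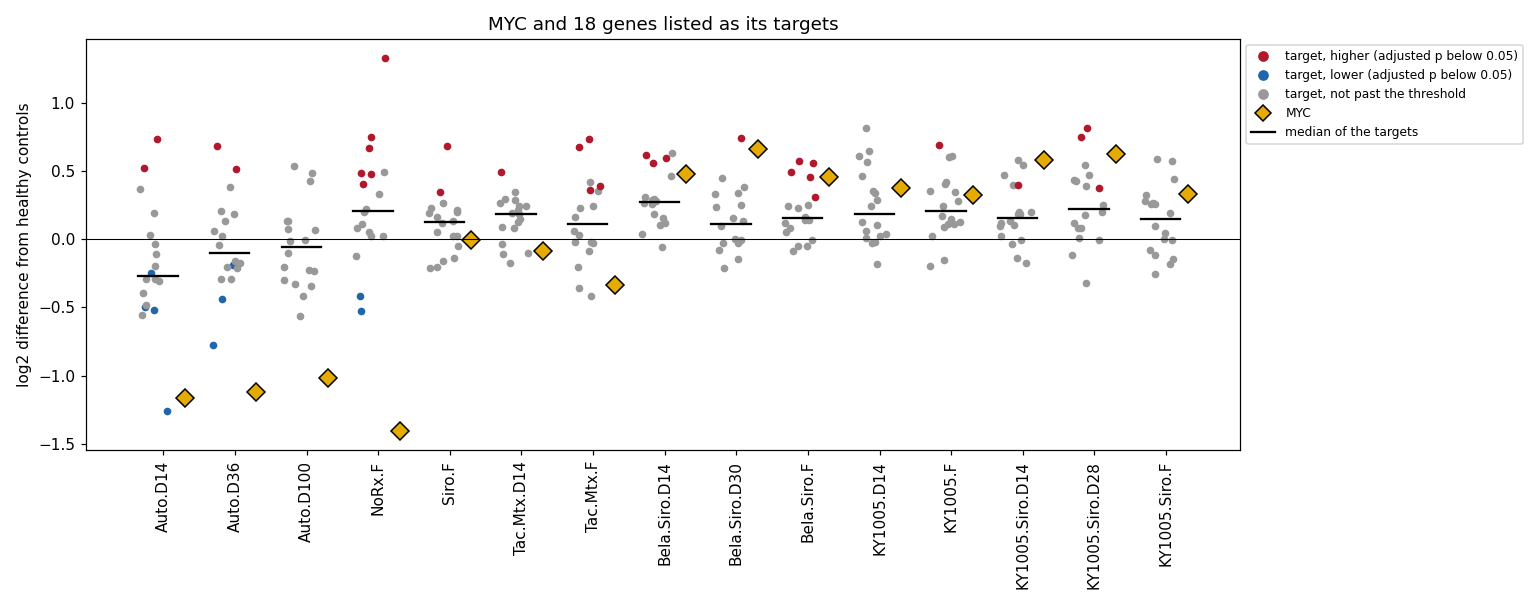
Log2 difference from healthy animals of MYC (diamonds) and of 18 genes listed as its targets (points, coloured where the adjusted p was below 0.05, bar at the median), for each of the 15 groups after transplant. In NoRx.F MYC stands at -1.41 and the median target at 0.21, whereas in Auto.D14 MYC stands at -1.17 and the median target at -0.27.

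Recipients of their own cells also had low MYC, which was called in Auto.D14 and Auto.D36 but not in Auto.D100. At day 14 MYC was 9.95, 9.73 and 8.85 in R.201, R.202 and R.200, all under the healthy median of 10.27, a difference of -1.17 ± 0.40 (adjusted p = 0.0304). BTG2 was 6.03, 6.42 and 7.10, the lowest mean of all groups, and differed by -1.89 ± 0.49 or 3.70-fold (adjusted p = 0.00529). DUSP1's second probe set differed by -1.78 ± 0.60 (adjusted p = 0.0297), its brighter one by -0.91 ± 0.73 (adjusted p = 0.39), so they did not give the same call. The call of 2 of 6 genes stands beside 19.4% of the probe sets called in either direction and 11% lower.

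These day 14 values rest on few and uneven arrays. R.201 and R.202 are the arrays of high actin ratio (3.30 and 3.38, against a healthy median of 0.78), and the part of RNA quality in the result cannot be told apart from the group. Without the 6 arrays of high ratio none of the 6 genes was called, with BTG2 at -1.30 and MYC at -1.82 from the 1 array left, which is assumed to vary like the other groups (adjusted p = 0.607 and 0.461). BTG2 missed the threshold without R.201 (-1.64) or R.202 (-1.84), and MYC without R.201 (-1.38), R.202 (-1.27) or R.200 (-0.84). JUNB, at -1.09 ± 0.43 (adjusted p = 0.0627), was called when only this group and healthy animals of its batch were fitted (-1.22, adjusted p = 0.0437) and with the myeloid level as a covariate (-1.27, adjusted p = 0.0309, range over the alternatives 0.0309 to 0.772). Without a batch term MYC was not called (-0.74, adjusted p = 0.108, range over the alternatives 0.016 to 0.461), and for BTG2 the range was 0.00254 to 0.607. MYC targets were lower in 4 and higher in 2 of 18 cases, where 11% of all probe sets were lower and 8.41% higher. Among them were NCL, the nucleolar protein nucleolin, at -1.26 ± 0.35, NOP56 at -0.50 ± 0.16 and CAD, which starts pyrimidine synthesis, at -0.52 ± 0.17, while LDHA was at 0.74 ± 0.15.

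At Auto.D36 MYC was called alone, at -1.12 ± 0.32 (adjusted p = 0.0145), where 9.26% of probe sets were called and 4.13% lower. Its values were 9.94 in R.62, 7.93 in R.200, 9.56 in R.201 and 8.88 in R.202, the second of which is the lowest of all arrays. Without R.200 the difference was -0.79 (adjusted p = 0.182), and within the batches that the group shares with healthy animals it was -1.09 (adjusted p = 0.0729, range over the alternatives 0.00222 to 0.182). R.200, R.201 and R.202 had healthy arrays in the same batch, from which MYC differed by -1.76 to -0.99 and FOS by -4.40, -1.26 and -5.29. R.62, in another batch with its own healthy array, went the other way, by 0.40 for MYC and by 2.36 for FOS.

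By day 100 no gene was called in Auto.D100, where 2.48% of probe sets were (5126 probe sets and 5 of 6 genes had an unadjusted p below 0.05). FOS was 7.87, 8.65, 4.19 and 4.98 in R.60, R.200, R.202 and R.201, and the last pair lay below every healthy animal. The difference of FOS was -3.16 ± 1.02 (adjusted p = 0.0718), of JUNB -1.12 ± 0.36 (adjusted p = 0.0706) and of MYC -1.02 ± 0.33 (adjusted p = 0.0738). No MYC value of the 4 arrays lay above the healthy median. In the 3 animals also measured at day 14, MYC had changed since then by a mean of 0.04 ± 0.18 (SD). Without a batch term FOS was called (-2.74, adjusted p = 0.0461, range over the alternatives 0.0461 to 0.261). R.60 was the animal here with its own healthy array in the same batch, and its FOS was 0.95, its JUNB 0.79 and its DUSP1 0.74 higher after transplant than in that array. In R.200, R.202 and R.201, whose healthy arrays lie in another batch, FOS differed by -2.69, -6.62 and -4.27. MYC differed from own healthy arrays by -0.95, 0.10 and -0.63 in these animals and by -0.45 in R.60.

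Late recipients of tacrolimus and methotrexate had high FOS, DUSP1 and IER2. FOS was 11.94, 12.88 and 13.49 in R.21, R.20 and R.19, each above the healthy median of 8.69 and all within the healthy range, and differed by 3.97 ± 1.06 or 15.7-fold (adjusted p = 0.00709). DUSP1 was 12.41, 12.54 and 13.43, above a healthy median of 10.52, and differed by 2.14 ± 0.64 or 4.42-fold (adjusted p = 0.0149). IER2 was 11.56, 11.57 and 12.02, the last of them above every healthy animal, and differed by 0.73 ± 0.26 (adjusted p = 0.0445). The call of 3 of 6 genes stands beside 14.3% of the probe sets called in either direction and 6.9% higher. JUNB (0.97 ± 0.38, adjusted p = 0.0692) and DUSP1's second probe set (1.41 ± 0.52, adjusted p = 0.0572) had positive differences that were not called. MYC differed by -0.34 ± 0.35 (adjusted p = 0.573) and BTG2 by -0.63 ± 0.42 (adjusted p = 0.347).

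With 3 animals these calls were not stable. FOS stood at 3.91 without R.20 (adjusted p = 0.05, at the threshold and not called) and at 3.61 without R.19 (adjusted p = 0.055), against a range of 0.0062 to 0.055 over its alternatives. DUSP1 missed the threshold without any of R.21 (2.33), R.20 (2.27) or R.19 (1.83), and so did IER2 (0.80, 0.80 and 0.58). IER2 was also lost with no filter on low values (0.73, adjusted p = 0.0634) and with a further quantile normalization (0.67, adjusted p = 0.0663), its range over the alternatives being 0.0327 to 0.233. In Tac.Mtx.F the myeloid marker level had a median of 7.19 (range 6.19 to 7.43), with 2 of 10 markers higher, S100A8 at 3.42 ± 1.05 and S100A9 at 3.77 ± 1.08. With that level as a covariate FOS was still called (3.34, adjusted p = 0.0275), whereas DUSP1 (1.65) and IER2 (0.59) lost their calls. Of the other immediate early genes 6 were higher and 2 lower of 36, with a median of 0.33, where 6.9% of all probe sets were higher and 7.36% lower. Among them were DUSP4, another MAP kinase phosphatase (1.15 ± 0.21), BATF (0.82 ± 0.23), RGS1, a regulator of chemokine receptor signalling (1.77 ± 0.54), and TRIB1, a pseudokinase (1.70 ± 0.54). Heat shock genes, which also respond to handling of cells, were higher in 1 of 7 cases, HSPA8 at 0.65 ± 0.14.

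In late belatacept and sirolimus recipients FOS was the only gene called, at 2.34 ± 0.78 or 5.06-fold (adjusted p = 0.0399), where 10% of probe sets were called and 5.23% higher. The 7 values of Bela.Siro.F ran from 9.49 to 13.47 with a median of 11.11, all above the healthy median and inside the healthy range. In R.49, which had its own healthy array in the same batch, FOS was 2.98 higher than in that array. JUNB differed by 0.69 ± 0.28 (adjusted p = 0.0984) and DUSP1 by 0.74 ± 0.47 (adjusted p = 0.336). The call of FOS was lost without any of R.42 (1.95), R.49 (2.24), R.68 (2.34) or R.67 (2.27) and with no filter on low values (adjusted p = 0.0592). The myeloid level was 7.39 in the median (range 6.60 to 8.82), with 4 of 10 markers higher, and with it as a covariate FOS stood at 1.35 (adjusted p = 0.45, range over the alternatives 0.0325 to 0.45). Of the other immediate early genes 5 were higher and 1 lower of 36, with a median of 0.33, where 5.23% of all probe sets were higher and 4.77% lower. Among them were DUSP4 (0.82 ± 0.15), MAFF, a small partner of AP-1 proteins (0.89 ± 0.18), and BATF3 (0.60 ± 0.14).

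No gene was called in recipients of KY1005, with wide intervals. FOS differed from healthy animals by 1.16 ± 1.15 in KY1005.F (95% interval -1.12 to 3.44) and by 1.29 ± 1.04 in KY1005.Siro.F (-0.78 to 3.36). In R.206 of KY1005.F, whose own healthy array lies in another batch, FOS differed from that array by -1.55 and DUSP1 by -2.24. None of the 6 was called in KY1005.D14 (0.202% of probe sets called, 3801 with an unadjusted p below 0.05), KY1005.F (3.28%), KY1005.Siro.D14 (4.15%), KY1005.Siro.D28 (12.1%) or KY1005.Siro.F (6.84%), and none had an unadjusted p below 0.05 in any of these 5 groups. All 5 groups lie in batch 6, which holds 7 healthy arrays. The 4 arrays of KY1005.Siro.F were far apart. FOS was 8.41, 11.34, 12.74 and 11.20 in R.217, R.219, R.220 and R.221, and BTG2 was 7.11, 9.10, 9.71 and 7.60, so that R.219 and R.220 exceeded every healthy animal in BTG2. The mean of 7 granulocyte markers was 4.66, 8.41, 6.31 and 6.53 in the same order, against 4.53 to 5.55 in healthy animals. The mean of the 5 T cell markers was 9.02 in R.219, against 9.28 to 10.04 in healthy animals, and within that range in the others. The part of the granulocyte markers in the levels of this group was not tested. DUSP1's second probe set was called here at 1.64 ± 0.51 (adjusted p = 0.037), with values of 6.34, 8.76, 10.90 and 8.11, while the brighter probe set was at 0.79 ± 0.62 (adjusted p = 0.441). That call was lost without R.219 (1.56), R.220 (0.85) or R.221 (1.78), without the arrays of high actin ratio (1.15, adjusted p = 0.389) and within batch 6 alone (adjusted p = 0.484). With the myeloid level, which was highest in this group, as a covariate it stood at 1.06 (adjusted p = 0.221, range over the alternatives 0.00121 to 0.484).

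No member was called in Siro.F (8.91% of probe sets called), Tac.Mtx.D14 (0.88%), Bela.Siro.D14 (2.68%) or Bela.Siro.D30 (1.14%). In Siro.F the animals stood far apart, with FOS at 11.43 and 13.06 in R.13 and R.18 and at 8.22 and 8.66 in R.17 and R.16, and MYC at 10.80, 10.50, 9.90 and 9.99. Against own healthy arrays of the same batch, FOS differed by 3.61 in R.13 and 2.88 in R.18. In R.16, whose healthy array lies in another batch, it differed by -2.79. BTG2 was low in all 4 groups, with no array above the healthy median of 8.15, at differences of -0.76 ± 0.37, -1.38 ± 0.42, -1.09 ± 0.42 and -1.35 ± 0.50, none of which passed (adjusted p = 0.213, 0.0952, 0.127 and 0.198). Unadjusted, BTG2 was the only member with a p below 0.05 in each of them.

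**Figure D4:**
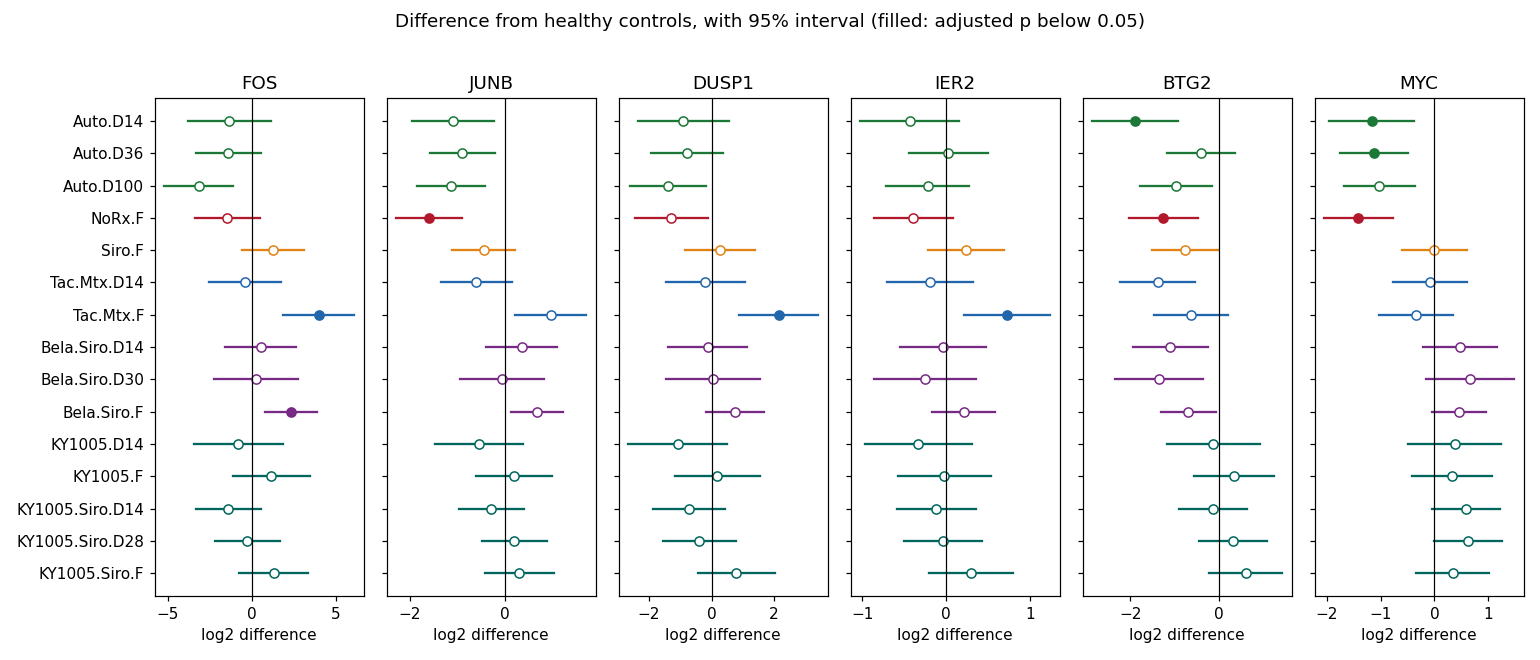
Log2 difference from healthy animals for each gene (panels) in each of the 15 groups after transplant (rows), with its 95% interval, filled where the adjusted p was below 0.05. JUNB, BTG2 and MYC are filled on the lower side in NoRx.F, and FOS, DUSP1 and IER2 on the higher side in Tac.Mtx.F.

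Recipients with sirolimus alone were set against those without prophylaxis to see what the drug leaves different. MYC was higher by 1.40 ± 0.39 or 2.65-fold in Siro.F than in NoRx.F (adjusted p = 0.0145), with values of 9.90 to 10.80 in Siro.F and 8.35 to 9.36 in NoRx.F. The call was lost without R.52 of NoRx.F (1.28, adjusted p = 0.0614) and when only these groups were fitted in the batches they share (1.30, adjusted p = 0.0712, range over the alternatives 0.00715 to 0.0712). In this comparison 6.46% of probe sets were called, 3.08% higher in Siro.F. All 6 genes had a positive difference, 5 of them with an unadjusted p below 0.05, but JUNB (1.15 ± 0.42, adjusted p = 0.0846) and FOS (2.71 ± 1.19, adjusted p = 0.176) were among those that missed the threshold. The days differ, 12 to 24 against 6 to 12.

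KY1005 alone was compared with no prophylaxis across batches, since KY1005.F and NoRx.F share none, and their days differ as well (16 and 23 against 6 to 12). JUNB was higher by 1.79 ± 0.53 (adjusted p = 0.0235) and MYC by 1.73 ± 0.49 (adjusted p = 0.0165), where 8.74% of probe sets were called and 4.67% higher in KY1005.F. JUNB was 9.75, 8.81 and 9.04 in R.211, R.206 and R.212 and MYC 9.55, 10.50 and 10.93. The mean of the 7 heat shock genes was 9.62, 8.57 and 8.18 in the same order, against 8.07 to 8.90 in healthy animals. Granulocyte marker means were 6.97, 5.26 and 5.74, against 4.53 to 5.55. The part of the heat shock genes and of the granulocyte markers in the JUNB level of R.211 was not tested. JUNB was no longer called without R.211 (1.51), R.212 (1.87) or R.51 of NoRx.F (1.64), MYC without R.206 (1.65) or R.212 (1.43), and both fell short when the 6 arrays of high actin ratio were left out (1.64 and 1.51, adjusted p = 0.0708 and 0.072). Over the alternatives the adjusted p ran from 0.00158 to 0.0978 for JUNB and from 0.00726 to 0.109 for MYC. BTG2 differed by 1.60 ± 0.60 (adjusted p = 0.0754), and without a batch term it was called (1.45, adjusted p = 0.0354).

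No gene was called between NoRx.F and Auto.D14 (7.5% of probe sets called), where JUNB differed by -0.50 ± 0.55, MYC by -0.24 ± 0.51 and BTG2 by 0.64 ± 0.62. These groups share no batch. Bela.Siro.D14 against Tac.Mtx.D14 gave 0 calls over all probe sets with limma (0%, 4824 with an unadjusted p below 0.05), and JUNB had the only member p below 0.05 before adjustment (0.95 ± 0.48, adjusted p = 0.328).

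Several animals were measured at day 14 and again later, which shows the course within an animal. FOS rose in each of 3 Tac.Mtx animals, from 9.44 to 11.94, from 7.48 to 12.88 and from 8.25 to 13.49 (mean change 4.38 ± 1.63, SD). It rose in 3 of 3 Bela.Siro animals as well, by 2.64 ± 1.37, and in 3 of 4 KY1005.Siro animals, by 2.32 ± 1.95. In the 3 Auto animals FOS was lower at day 100 than at day 14, by -4.12 in R.201, -2.74 in R.202 and -0.17 in R.200. Their day 36 levels of FOS were 7.99, 5.53 and 6.94 in the same order. DUSP1 moved the same way as FOS in the Tac.Mtx animals, by 2.17 to 2.45, and in the Bela.Siro animals, by 0.44 to 2.15. In Auto it changed by -1.62 in R.201, -0.70 in R.202 and 0.24 in R.200, and its second probe set by 0.52, 0.43 and -0.03. R.217 was the KY1005.Siro animal in which all 6 genes were lower in the later array (FOS by -0.49, DUSP1 by -1.44). MYC showed no common direction, with mean changes of -0.25 ± 0.56 in Tac.Mtx, -0.08 ± 0.66 in Bela.Siro, -0.23 ± 0.82 in KY1005.Siro and 0.04 ± 0.18 in Auto.

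The myeloid marker level and, in Auto, the actin ratio moved with some of these courses. In the KY1005.Siro animals the myeloid level went from 7.10 to 9.79 in R.219, from 7.57 to 8.71 in R.220, from 7.58 to 8.40 in R.221 and from 8.69 to 5.25 in R.217, in each the same way as FOS. In the Auto animals R.201, R.202 and R.200 it went from 7.10 to 6.19, from 7.55 to 4.87 and from 6.48 to 5.46. Their actin ratio was 3.30, 3.38 and 0.44 at day 14 and -0.07, -0.03 and -0.08 at day 100. The part of the myeloid markers and of RNA quality in these courses was not tested. In the Tac.Mtx animals R.21, R.20 and R.19, in which FOS rose, the myeloid level went from 7.81 to 7.43, from 7.18 to 7.19 and from 7.04 to 6.19. In Bela.Siro it went from 8.28 to 7.01 in R.38, from 8.77 to 8.82 in R.42 and from 6.15 to 7.94 in R.49.

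No member was called in those comparisons of the same animals that were fitted across all probe sets. The change from day 14 to the late arrays was not fitted for Bela.Siro, nor by itself for KY1005.Siro. For Tac.Mtx.F against Tac.Mtx.D14 the difference of FOS was 4.38 ± 1.36, of DUSP1 2.35 ± 0.81, of JUNB 1.56 ± 0.48 and of IER2 0.91 ± 0.33, with adjusted p = 0.641, 0.724, 0.62 and 0.739. In that comparison limma called 2 of 31710 probe sets (0.00631%), with 1865 at an unadjusted p below 0.05, these 4 genes among them. This fit does not pair the arrays of an animal. With the animal as a replicate block limma called 0 probe sets there (3792 at an unadjusted p below 0.05). Over the alternatives the lowest adjusted p was 0.0999 for DUSP1 and 0.363 for FOS, JUNB and IER2. Auto.D100 against Auto.D14 gave no member (7.35% of probe sets called), nor did KY1005.Siro.D28 against KY1005.Siro.D14 (0.00946%) or KY1005.Siro.F against KY1005.Siro.D28 (1.84%). Without the late array of R.217, its day 28 array being kept, the second DUSP1 probe set was called in the last of these (2.21, adjusted p = 0.0102). BTG2 was higher at day 28 than at day 14 in 5 of 5 KY1005.Siro animals, by 0.45 ± 0.39 (SD), with an adjusted p of 0.756. The course of KY1005.Siro from day 14 to the late arrays was tested against that of Auto by an interaction term, for which FOS had 4.54 ± 1.70 (adjusted p = 0.316), and 0% of probe sets were called with limma (3268 at an unadjusted p below 0.05). The other courses were not tested against each other.

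**Figure D5:**
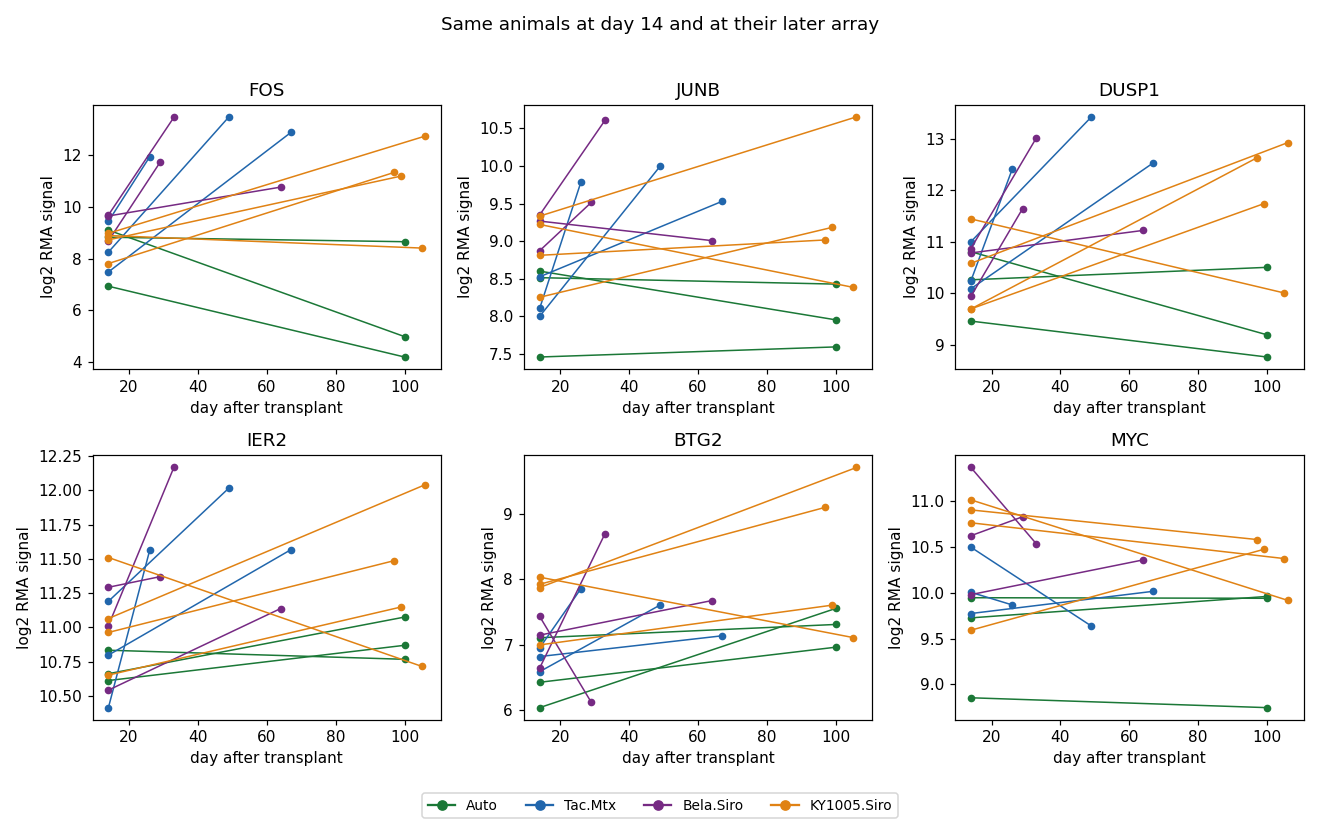
Level of each gene at day 14 and in the later array of the same animal (joined points), against the day after transplant, in log2 RMA signal, coloured by regimen. FOS is higher in the later array of all 3 Tac.Mtx and all 3 Bela.Siro animals and lower in all 3 Auto animals.

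The genes whose level followed each member most closely over the 16 group means were sought among 9928 genes. For FOS they were NSUN3 (Pearson's r = 0.811), IER5 (0.787) and TTC17 (0.787), for DUSP1 EIF1 (0.821), TTC17 (0.816) and IER5 (0.807), and for IER2 TTC17 (0.842), RFX3 (0.756) and H3C1 (0.739). IER5 is itself an immediate early gene. JUNB was followed by GPR65 (0.848), SRP68 (0.817) and the amino acid transporter SLC7A5 (0.816), and BTG2 by ZNF292 (0.867), THAP6 (0.86) and KDM3B (0.858). MYC had the closest companions, GKAP1 (0.927), DACT1 (0.919) and the ribosomal protein gene RPL30 (0.916). Among the members, FOS and DUSP1 had r = 0.947 over the group means and IER2 and MYC 0.193. These coefficients are descriptions over groups that share animals and batches. Those of the companion genes are the largest among 9928 over only 16 means, and they were not tested. Among so many genes high values also arise by chance.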

How the data were processed

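Blood T cells positive for CD3 were measured on Affymetrix rhesus arrays, 1 array per sample. The authors deposited log2 signal intensities; per the submitters' processing notes, RMA of the affy package made them. Versions, and whether batches had been adjusted, are not given in the sources used here. Values were used as deposited. The platform annotation gave 24969 probe sets 1 gene, 361 several and 27535 none, and 24629 of the first matched the RefSeq table of assembly T2T-MMU8v2.0 by gene ID with 0 symbols different. The pair of arrays of healthy animal R.201 was averaged, 99 control probe sets were left out, and the brightest single-gene probe set stood for a gene (10718 genes).

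All 16 groups entered 1 fit with batch as a factor (6 batches, limma 3.58.1, R 4.3.3, empirical Bayes with 80 residual and 3.38 prior degrees of freedom). P-values measure the spread between these arrays, and some animals recur between groups (consensus correlation 0.11). Every gene of the set with a probe set was named; of each other list at most 4 genes past the threshold were, those of smallest adjusted p, and cell type markers and heat shock genes where they touch a result. Permutation tests were two-sided (scipy 1.17.1). The genes and lists were chosen with earlier results of these data known. In simulated data the share of true 2-fold changes found was 80% for NoRx.F, 77% for Tac.Mtx.F, 88% for Bela.Siro.F and 71% for Auto.D14, each against healthy animals, and that of 4-fold changes 97%, 97%, 98% and 95%, with 100 changed probe sets of each size among 31710. The changed probe sets were drawn at random from all of these. Residual SDs of the members were larger than those of 77.9% (IER2) to 99.9% (FOS) of probe sets. The shares found are therefore not those of the members. Alternatives dropped the batch term, each array in turn, the filter or the arrays of high actin ratio, or used a stricter filter, further quantile normalization, the average over a gene's probe sets, the myeloid level as a covariate, the animal as a random or fixed block, or shared batches alone. Where a fitted difference is given without an animal, only its array in the group concerned was left out.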

Additional observations from a re-analysis of the deposited data

Results flagged for a closer look

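Among 56 sets of 4 to 7 arrays (a probe set in a group), 3 held an array that stood apart from the others, and chance alone flags about 1 in 20. BTG2 was 8.55 in R.217 of KY1005.Siro.D28, where the other 4 animals lay between 7.87 and 8.03. IER2 was 12.2 (12.17) in R.42 of Bela.Siro.F, the animal with the highest FOS, JUNB, DUSP1 and BTG2 of that group too. MYC was 9.59 in R.221 of KY1005.Siro.D14, where the other 4 lay between 10.63 and 11.01.

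Differences between regimens were flagged for MYC, 1.40 higher in Siro.F than in NoRx.F, and for JUNB and MYC, 1.79 and 1.73 higher in KY1005.F than in NoRx.F. FOS was higher in the later array than at day 14 in all 3 Tac.Mtx animals (mean change 4.38) and all 3 Bela.Siro animals (2.64) and lower in all 3 Auto animals (-2.35), and the difference of these courses was not tested.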

How the results depend on the processing

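Of the 6 genes, 2 were called for Auto.D14, 1 for Auto.D36, 0 for Auto.D100, 3 for NoRx.F, 3 for Tac.Mtx.F, 1 for Bela.Siro.F, 1 for Siro.F against NoRx.F and 2 for KY1005.F against NoRx.F, and these counts changed as follows. Without a batch term they were 1 for Auto.D14, 2 for Auto.D36, 1 for Auto.D100, 5 for NoRx.F, 2 for Siro.F against NoRx.F and 3 for KY1005.F against NoRx.F. With no filter on low values Bela.Siro.F had 0 and Tac.Mtx.F 2, and with a further quantile normalization Tac.Mtx.F had 2. Without arrays of high actin ratio Auto.D14 and KY1005.F against NoRx.F had 0. With the myeloid level as a covariate Auto.D14 had 3, Auto.D36 2, NoRx.F 4, Tac.Mtx.F 1, Bela.Siro.F 0 and Siro.F against NoRx.F 2. Within shared batches Auto.D14 had 3, and Auto.D36 and Siro.F against NoRx.F had 0. Leaving out 1 array gave 0 to 1 for Auto.D14, Auto.D36, Bela.Siro.F, Tac.Mtx.F and Siro.F against NoRx.F, 0 to 2 for KY1005.F against NoRx.F and 2 to 3 for NoRx.F; the cause was not tested. No called difference changed sign. Of the single values 2385 kept their side of the threshold, 49 lost the call and 15 gained it. KY1005.F against NoRx.F and NoRx.F against Auto.D14 share no batch and could not be fitted within batches. With the animal as a replicate block 0 members, and 0 probe sets, were called in each of the 4 comparisons of the same animals.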
